A study of Mus musculus with 16 samples.

Results

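Mast cells live in the peritoneal cavity beside macrophages and B cells, and RNA of adherent peritoneal cells can hold their transcripts. The 9 genes described here serve as mast cell markers, and not all are particular to mast cells of the connective tissue kind. These are granule proteases (Cpa3, Cma1, Mcpt4 and Tpsb2), receptor chains (Kit, Fcer1a and Ms4a2), the histamine-forming enzyme Hdc and the transcription factor Gata2. They were found on the array by gene symbol or synonym, through 12 probes, and all 9 were among the 17465 features kept for testing. Tpsb2 is listed on the array under its older name, Mcpt6. The question was how much mast cell RNA each array held, whether it differed with treatment or genotype, and whether it went with the level of Il6, a cytokine that macrophages and mast cells both make.

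The study asked what lipin-1 does to gene expression when macrophages meet LPS, a bacterial ligand of the receptor TLR4. Its 16 single-colour arrays fall into 4 groups of 4. The groups were cells labelled fld given LPS, cells labelled fld left untreated, control cells given LPS and control cells left untreated. LPS was given at 100 ng/ml over 5 h in medium without serum. All mice were males of the strain labelled BALB/cByJ-Lpin1fld/J, so the controls, labelled heterozygotes, carry 1 copy of the fld allele of Lpin1. Mice labelled fld carry the mutation known as fatty liver dystrophy, which affects Lpin1. This gene encodes lipin-1, an enzyme that turns phosphatidate into diacylglycerol. Peritoneal cells were left to adhere and then rinsed with PBS to remove those that had not attached, with no sort for macrophages. The labels do not say whether arrays of a group came from separate mice, so p-values measure the spread between these arrays, which may be technical.

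The 75th percentile of the processed intensity ranged over the arrays between 189 and 627, and between 58.7% and 65.4% of spots were well above background. A level below is the log2 processed intensity minus that percentile, so that 0 is the 75th percentile itself. Each of the 4 groups lay on a slide of its own, so a slide effect and a group effect cannot be told apart. Of the 4 Lpin1 probes, 3 read between -7.35 and -4.58 on replicates 1 to 3 labelled fld, against -4.43 to -1.99 on control arrays. On the arrays labelled fld replicate 4 these 3 probes read between -3.54 and -1.36, each within or above its range on control arrays. The genotype of those arrays rests on their label alone, which these probes do not match. They are counted as fld below unless left out by name. All 8 macrophage markers were well above background on every array, and so were all 6 B cell markers. Of 4 basophil markers on the array, Prss34, a serine protease, and Il3ra, a chain of the interleukin-3 receptor, were above background on all 16 arrays and Cd200r3 on 15. The basophil protease Mcpt8 was above it on 0 of 16. Mcpt2 and Mcpt9, proteases of other mast cell types, were not above background on any array. Mcpt1, a protease of mucosal mast cells, was above background on 1 array. In a bulk sample, fewer mast cells and less of these RNAs per mast cell cannot be told apart.

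Mast cells store proteases, histamine and serotonin on heparin in granules, and release them when antigen links IgE bound to the high-affinity IgE receptor. Fcer1a encodes the chain of that receptor that binds IgE, Ms4a2 the chain that amplifies its signal, and Kit the receptor of stem cell factor, on which mast cells depend to survive. Gata2 encodes a transcription factor that mast cells need to form. Hdc differs from the rest in that macrophages and neutrophils can make it too.

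All members but Ms4a2 were well above background on all 16 arrays. Ms4a2 was above it on 13 and fell short on 1 array each of the untreated fld, LPS control and untreated control groups. It was kept for testing only through LPS fld cells, which were also its highest group, so its differences from that group are given as descriptions. Cpa3, the carboxypeptidase of mast cell granules, read 2.02, 2.71, 1.45 and 3.27 with LPS and 1.15, 2.35, 2.78 and 1.54 untreated in replicates 1 to 4 labelled fld. Control cells had 3.31, 2.56, 2.53 and 2.79 with LPS and 2.44, 2.70, -0.01 and 2.48 untreated. Replicate 3 of untreated control cells stood far below the other 3 arrays of its group, and the 4 groups overlapped apart from it.

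Cma1, a chymase, read 5.68, 6.44, 5.06 and 6.64 with LPS and 4.87, 5.53, 6.62 and 4.60 untreated in cells labelled fld. Its control values were 6.54, 6.02, 5.51 and 6.11 with LPS and 5.79, 5.86, 3.44 and 5.79 untreated. The same control array was low, and the other 3 untreated control arrays lay close together. Mcpt4, another chymase, read 2.38, 2.90, 2.30 and 3.55 with LPS and 1.56, 2.63, 3.16 and 2.08 untreated in cells labelled fld. Control cells showed 4.11, 3.54, 3.27 and 3.92 with LPS and 3.28, 3.49, 1.11 and 3.38 untreated. Untreated, all 4 fld values lay under 3 of the 4 control values, and with LPS 3 of the 4 fld values lay under every control value. Tpsb2, a tryptase, read 2.05, 2.60, 1.19 and 3.11 with LPS and 0.93, 1.85, 3.02 and 0.92 untreated in cells labelled fld. Its values in control cells were 3.10, 2.53, 2.27 and 2.61 with LPS and 2.20, 2.42, 0.03 and 2.47 untreated. Untreated fld replicate 3 was the high array here, as for all 9 members.

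**Figure D1:**
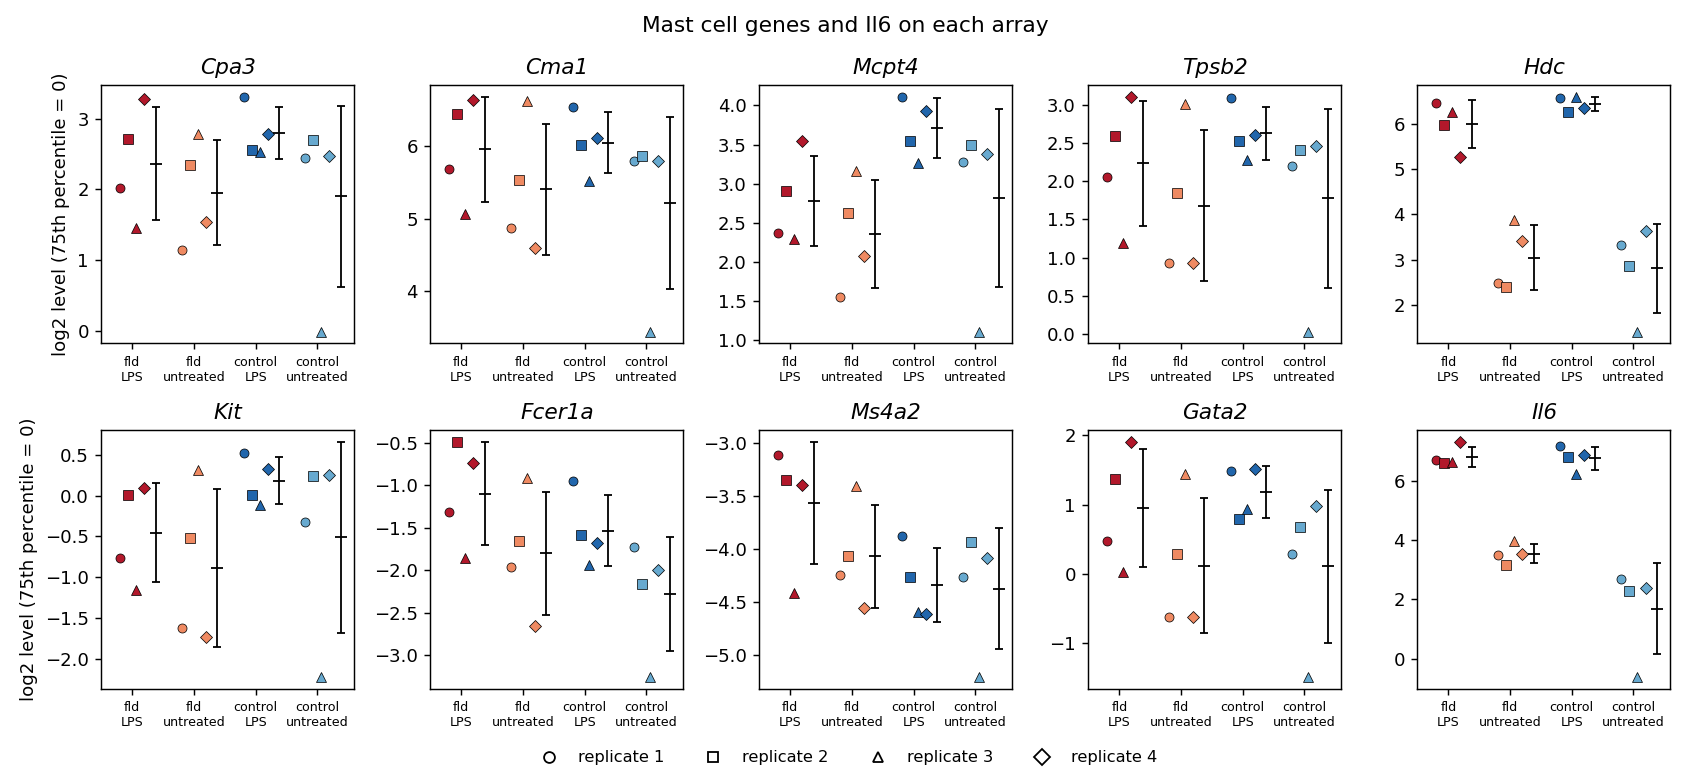
Log2 level relative to the 75th percentile of each array (vertical axis) for the 9 mast cell genes and Il6, with 1 point per array, symbols for the replicate number and bars for the mean and SD of 4 arrays. Untreated control replicate 3 (triangle, right) is the lowest point of its group in every panel, and Hdc and Il6 separate LPS from untreated arrays.

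The receptor genes showed the same arrays as high and low. Kit read -0.76, 0.00, -1.15 and 0.09 with LPS and -1.62, -0.52, 0.31 and -1.73 untreated in cells labelled fld. Control cells gave Kit 0.52, 0.01, -0.12 and 0.32 with LPS and -0.32, 0.24, -2.22 and 0.26 untreated. Untreated fld replicate 3 was again high, and untreated control replicate 3 low. Fcer1a read -1.32, -0.49, -1.85 and -0.73 with LPS and -1.96, -1.66, -0.92 and -2.66 untreated in cells labelled fld. Its control values were -0.95, -1.59, -1.93 and -1.68 with LPS and lay between -3.26 (replicate 3) and -1.73 (replicate 1) untreated. Untreated replicate 3 was the extreme array in both genotypes, high in cells labelled fld and low in control cells. Ms4a2 averaged -3.57 ± 0.58 with LPS and -4.07 ± 0.48 untreated in cells labelled fld, against -4.34 ± 0.35 and -4.37 ± 0.57 in control cells (SD, n = 4 each). For both chains of the IgE receptor all 4 groups overlapped. Gata2 read 0.47, 1.37, 0.03 and 1.91 with LPS and -0.62, 0.29, 1.44 and -0.63 untreated in cells labelled fld. The control arrays gave Gata2 levels of 1.49, 0.79, 0.94 and 1.52 with LPS and 0.28, 0.67, -1.49 and 0.98 untreated. All 4 groups overlapped for Gata2 too.

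Hdc, which turns histidine into histamine, was the member whose treatment groups did not overlap. The share of all features without overlap was not counted. LPS changed 40.1% of features in cells labelled fld and 30% in control cells (limma, adjusted p under 0.05). It read 6.46, 5.97, 6.26 and 5.27 with LPS and 2.49, 2.40, 3.88 and 3.41 untreated in cells labelled fld. Control cells had 6.56, 6.25, 6.57 and 6.34 with LPS and 3.32, 2.87, 1.42 and 3.64 untreated.

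The array with the lowest Hdc in its LPS group, fld replicate 4, was the array with the highest value for 6 of the other members. The spread between arrays of a group was large for every member. The SD within groups, pooled over the 4 groups, was between 0.50 (Ms4a2) and 0.89 (Tpsb2) log2 units, which places the members between percentiles 89.9 and 98.8 of all features. The median feature had 0.25. Il6 itself had 0.83.

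Untreated control replicate 3 was the lowest of its group for 9 of 9 members. Relative to the mean of the other 3 untreated control arrays it stood between -2.55 (Cpa3) and -1.11 (Ms4a2) log2 units. The mean level of the 9 genes on it was -0.69, against 1.22 to 1.43 on the rest of the group. Summed on the linear scale, the 9 genes came to 18.4 times the 75th percentile on that array and to between 87.4 and 92.8 times it on the others. Its macrophage markers summed to 1018, within the 954 to 1039 of its group, and its B cell markers to 527, within 347 to 551. Over all features it stood apart more often than the other arrays of its group: it was a lone extreme by Dixon's ratio for 2.01% of features, against 0.69% to 1.32% on the other arrays of its group and 0.44% to 4.66% over all 16.

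Among cells labelled fld, untreated replicate 3 was the highest of its group for 9 of 9 members and replicates 1 and 4 were low, with means over the 9 genes of 1.88 on replicate 3, 0.98 on replicate 2, and 0.28 and 0.33 on replicates 1 and 4. With LPS, fld replicate 3 was the lowest for 8 of 9 members (mean 0.99) and replicate 4 the highest for 6 of 9 (mean 2.19). LPS control arrays were closer, with means between 1.61 and 2.31.

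**Figure D2:**
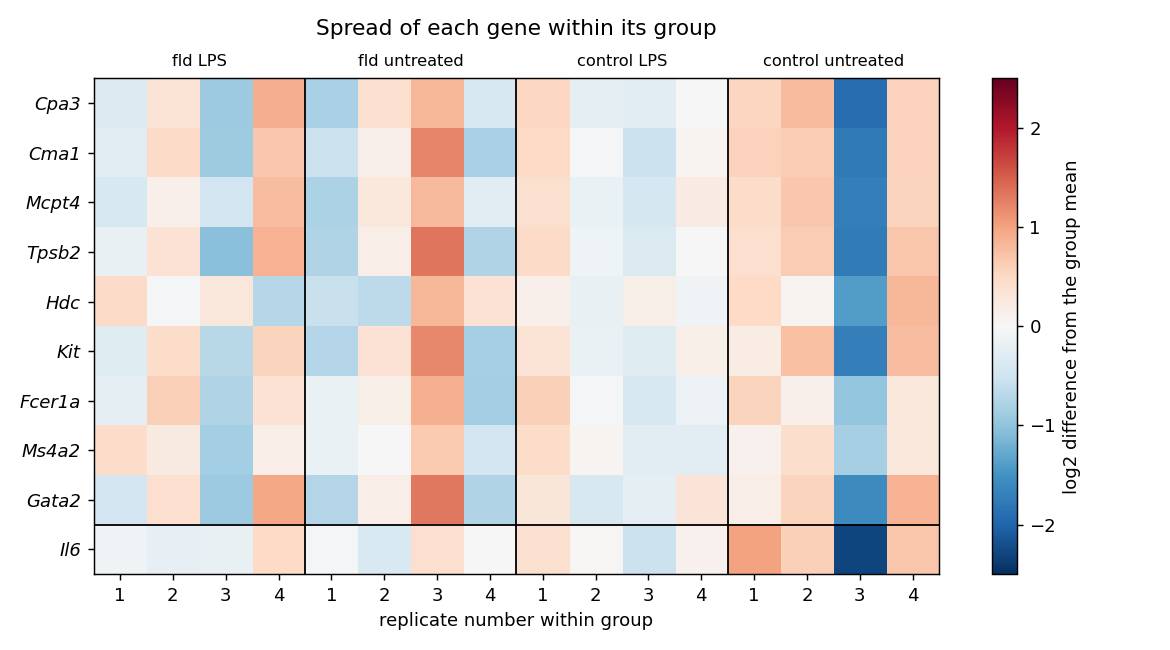
Log2 difference of each array from the mean of its group (colour) for the 9 mast cell genes and Il6 (rows), with the 4 arrays of each group side by side. On each array the 8 rows other than Hdc mostly share a colour. The deepest blue column is untreated control replicate 3, and Il6 follows that column but shows little of the spread in cells labelled fld.

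With the group means removed, 28 pairs of members without Hdc had Pearson r between 0.74 and 0.99 over the 16 arrays (median 0.94), and Spearman rho between 0.69 and 0.99. These values describe the arrays, which share the low array named above. Without the 2 arrays whose mean over the members lay farthest from that of their group (untreated control replicate 3 and untreated fld replicate 3), r lay between 0.56 and 0.98. The 8 pairs with Hdc had r between 0.36 and 0.51 and, without those 2 arrays, between -0.12 and 0.05. Hdc thus went with the other members mostly on those arrays. The 2 probes of Cma1, of Mcpt4 and of Gata2 went together over the arrays, with r of 0.996, 0.994 and 0.989 once group means were removed.

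By the same measure, the 10 genes outside the list most like the members' mean were Hs6st2, Tpsab1, Cyp11a1, Slc45a3, Il1rl1, Smpx, Ednra, Slc6a4, Slc18a2 and Muc13, with r between 0.98 and 0.96 over the 16 arrays. Without untreated control replicate 3 their r lay between 0.93 and 0.98. Tpsab1 is a tryptase (r 0.98), Il1rl1 the receptor of interleukin-33 (0.97), Slc18a2 the transporter that loads amines into granules (0.97) and Slc6a4 the serotonin transporter (0.97). Hs6st2 adds sulfate to heparan chains (0.98), and Cyp11a1 cleaves the side chain of cholesterol (0.97). Tpsab1 read 2.09, 2.47, 0.03 and 2.64 on untreated control replicates 1 to 4, the same array being low. In all, 40 of 17439 features had r over 0.9, 7 of them members, and 30 features did without that array. These counts and the ranks given for this measure include the members. Mrgprb2 and Mrgprb1, receptors of mast cells, had r of 0.92 and 0.94, and Hpgds, the haematopoietic prostaglandin D synthase, 0.84. Prss34, the protease of the basophil list, had r of 0.91 (rank 36) with that array and 0.91 (rank 28) without it. The part of basophil RNA in the spread of the members was not tested. Fcer1g, the chain of the IgE receptor that macrophages also use, had r of 0.05.

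Promoter sequences from the RefSeq annotation of GRCm38.p6 (250 bases before to 50 bases after the start) were held for 8 of the 9 members, all but Tpsb2. They are shown for the members whose windows held AGATAA or TGATAA, a form of the letters that GATA factors recognise. Gata2 is a member that moved with these members. Hdc, which moved less closely with the rest, is shown too. The letters AGATAA or TGATAA, on either strand, were in 4 of the 10 windows held for the members (1 each of Cpa3, Mcpt4, Fcer1a and Ms4a2), against 18.6% of 32851 promoters of all genes. They stand in capitals. The windows are Cpa3 at chr3:20242132-20242431, minus strand, Mcpt4 at chr14:56062261-56062560, minus strand, Fcer1a at chr1:173227180-173227479, minus strand, Ms4a2 at chr19:11623670-11623969, minus strand and Hdc at chr2:126618629-126618928, minus strand, each written 5′ to 3′ on the gene's strand.
Cpa3: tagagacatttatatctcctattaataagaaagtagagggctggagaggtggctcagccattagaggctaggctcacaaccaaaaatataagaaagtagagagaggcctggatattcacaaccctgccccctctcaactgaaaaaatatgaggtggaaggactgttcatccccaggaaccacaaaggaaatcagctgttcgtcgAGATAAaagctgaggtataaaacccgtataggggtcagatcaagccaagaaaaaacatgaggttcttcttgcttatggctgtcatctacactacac
Mcpt4: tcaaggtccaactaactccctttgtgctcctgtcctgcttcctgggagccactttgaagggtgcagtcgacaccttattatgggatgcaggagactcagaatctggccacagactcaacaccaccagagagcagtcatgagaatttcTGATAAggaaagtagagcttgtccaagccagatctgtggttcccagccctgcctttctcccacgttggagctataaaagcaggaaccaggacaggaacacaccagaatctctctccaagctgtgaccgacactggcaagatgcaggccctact
Fcer1a: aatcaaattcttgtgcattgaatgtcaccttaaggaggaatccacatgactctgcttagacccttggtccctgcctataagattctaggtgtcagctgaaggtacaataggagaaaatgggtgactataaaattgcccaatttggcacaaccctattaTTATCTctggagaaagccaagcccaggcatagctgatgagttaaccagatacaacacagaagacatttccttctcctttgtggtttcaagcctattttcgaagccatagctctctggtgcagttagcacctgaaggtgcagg
Ms4a2: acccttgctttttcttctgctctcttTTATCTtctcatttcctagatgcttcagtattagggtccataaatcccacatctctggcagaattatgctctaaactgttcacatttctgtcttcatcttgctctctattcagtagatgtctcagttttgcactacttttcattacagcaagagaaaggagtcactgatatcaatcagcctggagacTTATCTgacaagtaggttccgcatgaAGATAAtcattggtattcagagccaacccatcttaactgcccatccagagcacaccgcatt
Hdc: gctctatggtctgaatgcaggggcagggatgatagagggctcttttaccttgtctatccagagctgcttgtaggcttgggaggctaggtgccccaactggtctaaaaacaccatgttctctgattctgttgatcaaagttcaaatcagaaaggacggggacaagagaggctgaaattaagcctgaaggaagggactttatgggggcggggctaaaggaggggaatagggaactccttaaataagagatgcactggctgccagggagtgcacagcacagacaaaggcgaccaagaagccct
The match began 46 bases before the annotated start in Cpa3, 103 in Mcpt4 and 92 in Fcer1a, and Ms4a2 had 3, at 224, 37 and 11 bases. The Hdc window held neither AGATAA nor TGATAA. The windows of Cma1, Kit and Gata2, which moved with the other members, held neither as well. Letters with G in place of the last A, such as TGATAG in the Hdc window, were not searched. Neither the AP-1 letters TGANTCA nor the CRE letters TGACGTCA were in any of the member windows, where 7.81% and 1.79% of all promoters hold them. The E-box letters CANNTG were in 7 of the 10 member windows, against 72.3% of all promoters. A match describes letters and no binding was measured here.

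LPS raised 1 of the 9 members in each genotype, and the others did not pass the test. In cells labelled fld, 40.1% of all features passed, and in control cells 30% did. Hdc rose by 2.95 log2 units (SE 0.43, adjusted p = 1.2e-04) in cells labelled fld and by 3.62 (SE 0.43, adjusted p = 2.0e-05) in control cells. The other 8 were above the untreated mean in both genotypes, in cells labelled fld by between 0.41 (Cpa3) and 0.82 (Gata2). The adjusted p there lay between 0.17 and 0.58 for members other than Ms4a2, whose difference is a description. In control cells the 8 were above the untreated mean by between 0.03 (Ms4a2) and 1.07 (Gata2), with adjusted p between 0.17 and 0.95. The median of the 9 was 0.55 in cells labelled fld and 0.85 in control cells, and that of all features 0.06 and 0.03. Without untreated control replicate 3, the 8 lay between -0.24 and 0.54 in control cells, and Hdc at 3.15. Without both arrays labelled fld replicate 4, the 8 lay between -0.03 and 0.29 in cells labelled fld, and Hdc at 3.31.

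Hdc was thus set against the other members on each array. It stood above their mean by 3.46 to 5.94 log2 units with LPS and by 1.60 to 3.47 untreated in cells labelled fld. The same difference was 4.78 to 5.59 with LPS and 1.71 to 2.48 untreated in control cells. In control cells the 2 ranges did not overlap, and in cells labelled fld they met at replicate 4 of each group. Which cells carried the Hdc RNA was not tested.

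**Figure D3:**
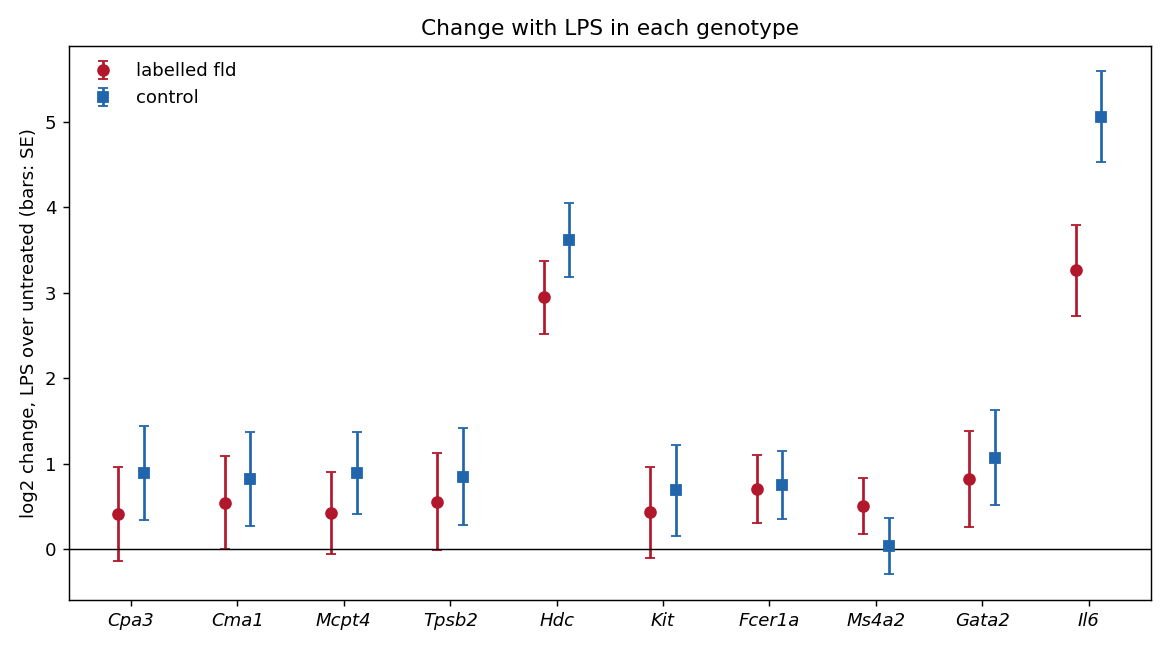
Log2 change with LPS over untreated (points, bars are limma's SE) for the 9 mast cell genes and Il6, in cells labelled fld (circles) and control cells (squares), fitted over 16 arrays. Hdc and Il6 stand at 2.95 or above in both genotypes, and the other 8 members lie between 0.03 and 1.07.

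Of 39 other genes tied to mast cells, 38 were on the array and 33 were kept. LPS raised 5 and lowered 5 of the 33 in cells labelled fld, where it raised 3831 and lowered 3178 of all 17465 features. In control cells it raised 5 and lowered 6 of the 33, and raised 2580 and lowered 2651 of all features. All features, like the list, were thus called in both directions. Gzmb, granzyme B, rose by 3.65 in cells labelled fld and by 1.99 in control cells. Adora3, an adenosine receptor, rose by 1.30 and 1.73, and Srgn, the core protein of granule proteoglycans, by 0.99 and 0.92. Ltc4s, which makes leukotriene C4, fell (-2.36 in cells labelled fld and -2.55 in control cells), as did the transcription factors Mitf (-1.09 and -0.81) and Lmo2 (-0.95 and -0.77). The highest adjusted p of these 6 genes was 0.026. Several of these genes are also expressed by macrophages. Genes most like the members did not pass. Tpsab1 stood at 0.60 in cells labelled fld and 0.37 in control cells (adjusted p = 0.46 and 0.70). Il1rl1 stood at 0.66 and 0.91 (adjusted p = 0.32 and 0.21), and Slc18a2 at 0.53 and 0.87 (adjusted p = 0.44 and 0.24).

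Between genotypes no member passed. Without LPS, 5.26% of all features passed and 0 of 9 members did, with 0 at an unadjusted p under 0.05. Member differences, fld minus control, lay between -0.46 and 0.49, with SE between 0.33 and 0.57 and a median of 0.05, and the median feature was at 0.06. With LPS, 17.1% of features passed and 0 of 9 members did. None of the members other than Ms4a2 had an unadjusted p under 0.05 in limma. Ms4a2, kept only through LPS fld cells, stood 0.77 higher there than in LPS control cells, a description with no test. Mcpt4 was 0.93 lower in cells labelled fld (SE 0.48, adjusted p = 0.24), and the median member was at -0.39, the median feature at 0.02. With each array's median in place of its 75th percentile, Mcpt4 stood at -1.33 and passed (adjusted p = 0.026). That scaling moved the median feature by -0.40 and left 23.3% of called features higher in cells labelled fld, against 94.7%. The difference between genotypes in the response to LPS was called for 0% of features and 0 of 9 members, with 1649 features and 0 members at an unadjusted p under 0.05 in limma. Member differences there lay between -0.67 (Hdc) and 0.47 (Ms4a2), with SE between 0.46 and 0.80. Of the 33 other genes tied to mast cells that were kept, 1 passed with LPS, against 17.1% of all features, and none passed without LPS. It was Il13, a cytokine, 0.92 higher in cells labelled fld with LPS (SE 0.25, limma adjusted p = 0.019). The call for Il13 was not tested under other scalings.

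Il6, the gene the members were set against, read 6.69, 6.60, 6.62 and 7.31 with LPS and 3.50, 3.17, 3.97 and 3.53 untreated in cells labelled fld. Control cells read 7.16, 6.78, 6.22 and 6.86 with LPS and 2.69, 2.29, -0.60 and 2.40 untreated. The array lowest in mast cell genes was thus lowest in Il6 as well. Il6 rose with LPS by 3.26 (SE 0.53, adjusted p = 2.9e-04) in cells labelled fld and by 5.06 (SE 0.53, adjusted p = 7.1e-06) in control cells, and without that array by 4.29 in control cells. Untreated, Il6 was 1.85 higher in cells labelled fld than in control cells (SE 0.53, adjusted p = 0.058), and without that array 1.08 higher. The array left out is set apart by its Il6 level itself, so the value without it is a description.

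Among arrays of the same group, the fitted slope of every member on Il6 was positive, and 1 passed. With group means in the fit and Il6 as a covariate, the slope was above 0 for 9 of 9 members, between 0.39 (Ms4a2) and 0.85 (Cpa3) log2 units per log2 unit of Il6. Mcpt4 alone passed (0.77, SE 0.13, adjusted p = 0.048), against 0.0859% of 17464 features (15 features). The other 8 had adjusted p between 0.083 and 0.31, and all 9 members had an unadjusted p under 0.05, as did 1989 features. The members moved together over the arrays and share the array low in Il6, so their slopes are not separate observations. Without untreated control replicate 3 the slopes of the 8 other than Hdc lay between 0.56 and 1.20 with adjusted p between 0.13 and 0.36, Mcpt4 at 0.95 (adjusted p = 0.13), and that of Hdc was 0.14. Without both arrays labelled fld replicate 4 the 9 slopes lay between 0.39 and 0.81. The call for Mcpt4 did not hold under most other settings.

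**Figure D4:**
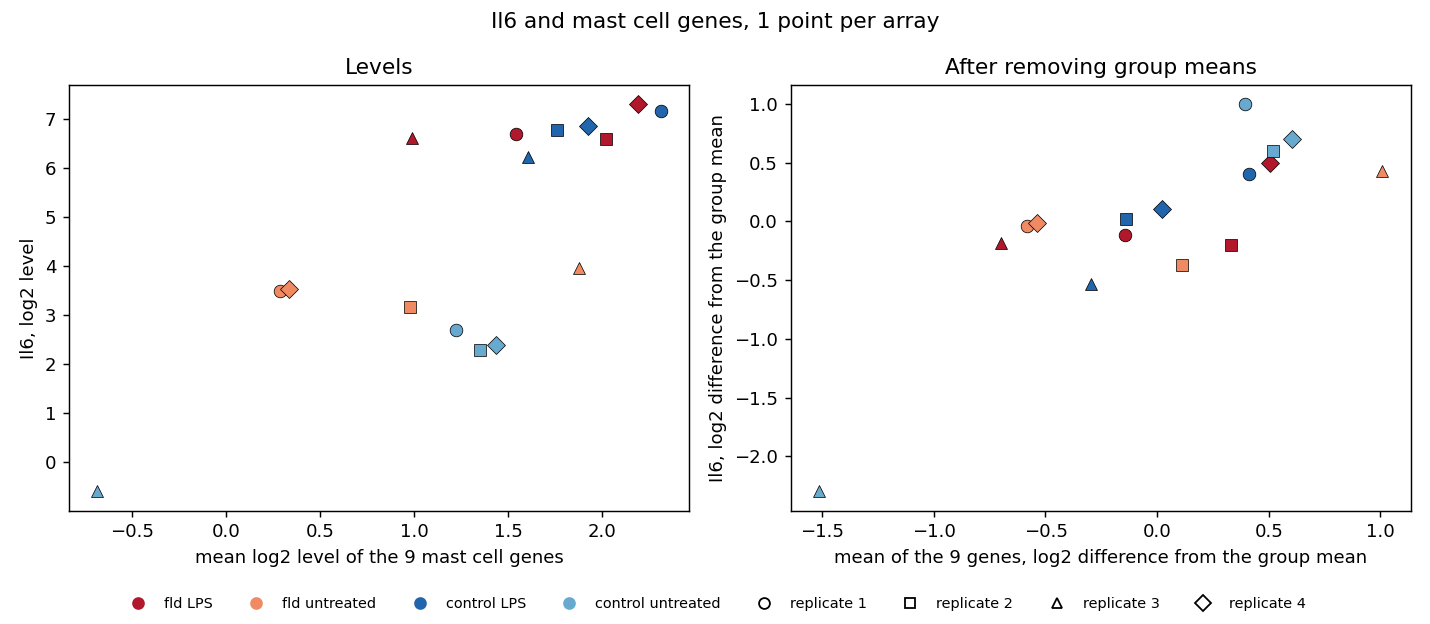
Il6 level against the mean level of the 9 mast cell genes, 1 point per array (log2 units, left), and the same with the group means removed (right). Untreated control replicate 3 lies apart at the lower left of both panels, and LPS arrays lie above untreated arrays at left. The rest of its group lies above the group mean in Il6 at right.

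Over the 8 untreated arrays, Pearson r of a member with Il6 lay between 0.41 (Kit) and 0.76 (Ms4a2). In exact two-sided permutation tests p lay between 0.045 and 0.35, and adjusted over all features between 0.26 and 0.64. Spearman rho lay between -0.17 and 0.57, with exact permutation p between 0.15 and 0.70 and adjusted p between 0.42 and 0.88. The pairings ran across both genotypes, which lay on separate slides. These values thus do not separate a link within groups from a difference between groups. Leaving out the 2 arrays farthest from the median Il6 level, untreated control replicate 3 and fld replicate 3, r was negative for 9 of 9 members, between -0.96 and -0.26. Leaving out untreated control replicate 3 alone, r lay between -0.59 (Mcpt4) and 0.36 (Fcer1a). The relation over untreated arrays thus rests on that array. Without both arrays, the 6 left fall into 2 clusters by genotype in Il6, 3 arrays each, too few for a value within a cluster.

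Over the 8 LPS arrays r was between 0.37 and 0.70 for 8 members and -0.53 for Hdc. Exact permutation p lay between 0.051 and 0.37, and adjusted p between 0.52 and 0.62. Here too the pairings ran across both genotypes. Without the 2 arrays farthest from the median Il6 level, fld replicate 4 and control replicate 3, r lay between -0.21 (Ms4a2) and 0.83 (Mcpt4). Spearman rho was highest for Tpsb2 and Kit (0.74 each, exact permutation p = 0.046, adjusted p = 0.96).

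Il6 was also set beside the members in the likeness measure. Its r with the members' mean, group means removed, was 0.82 over the 16 arrays, rank 78 of 17439 features, and 0.56, rank 655, without untreated control replicate 3. Markers of other cell types were summed on the linear scale for each array, in units of its 75th percentile. Neutrophil markers summed to 19.1 to 26.8 with LPS and 1.29 to 1.65 untreated in cells labelled fld, against 9.14 to 15.9 with LPS and 1.25 to 2.30 untreated in control cells. This sum was mostly S100a8, which rose with LPS by 4.49 in cells labelled fld and by 3.46 in control cells (limma, adjusted p = 2.0e-08 and 1.1e-07). Of 6 neutrophil markers listed, 4 were kept and 2 rose in each genotype, S100a8 and Camp. Camp, an antimicrobial peptide of granules, averaged -1.51 with LPS and -4.01 untreated in cells labelled fld, against -1.11 and -4.17 in control cells. The change with LPS was 0.77 in cells labelled fld and -1.39 in control cells for S100a9, and 0.35 and -0.03 for Mpo, and neither passed. Ngp was above background on 1 array. Their part in the Hdc rise was not tested. Macrophage markers summed to 1346 to 1629 with LPS and 1081 to 1178 untreated in cells labelled fld, against 1095 to 1563 and 954 to 1039 in control cells. That sum was mostly Lyz2 and Cd14. By gene, LPS raised 1 of the 8 macrophage markers (Cd14) and lowered 4 in cells labelled fld (median of the 8 -0.82), and raised 1 and lowered 2 in control cells (median -0.50). Csf1r, the receptor of macrophage colony-stimulating factor, fell (-2.43 in cells labelled fld and -1.71 in control cells), and so did Cd68 (-1.05 and -0.96). Basophil markers summed to 8.21 to 10.8 with LPS and 6.04 to 7.73 untreated in cells labelled fld, against 6.71 to 8.57 and 5.67 to 6.53 in control cells. That sum was mostly Il3ra, which rose with LPS by 0.56 in cells labelled fld and by 0.39 in control cells (limma, adjusted p = 0.0025 and 0.027). Prss34 and Cd200r3 did not pass in either genotype. Members summed to 122 to 174 with LPS and 43.3 to 142 untreated in cells labelled fld, against 164 to 228 and 18.4 to 92.8 in control cells. This sum includes Hdc, so its difference with LPS is not one of the other 8 genes alone.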

How the data were processed

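RNA was measured on 16 Agilent single-colour arrays (Cy3). The deposited scanner files hold intensity readings for 45018 spots (43379 without the controls) from Agilent Feature Extraction 9.5.1.1 on design 014868, per the file headers, and the intensity used is the processed signal, already background-corrected. The deposited series value table holds a ratio, the processed intensity divided by each array's median. Its columns all have a median of 1 and genes were not centred, so no scale, centring or direction stays unknown. RNA was extracted with Trizol and amplified with a linear amplification kit, per the labels' protocols. Probe sequences were not used here.

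Levels are log2 processed intensity minus the array's 75th percentile over spots that are not controls. Outlier spots (0.208%) were left out and repeated spots averaged. A probe was kept if every array of 1 group or more read it well above background, which left 25534 of 41174. The brightest probe stood for a gene, giving 17465 features, 14069 with a RefSeq symbol. Names came through a RefSeq table of GRCm38.p6, and Ms4a1, an older synonym of Ms4a2, was not used because it names another gene. The test was limma's (version 3.58.1, R 4.3.3; lmFit and eBayes, 1 mean per group over all 16 arrays, two-sided, Benjamini-Hochberg over all features, threshold 0.05). The Il6 slope added Il6 as a covariate. The fit was tested on simulated data. Named genes are the members, Il6, up to 3 other mast cell genes in each direction that passed, 6 fixed genes and the 10 features most alike. The members and lists were chosen with earlier results of these data known. Alternatives changed the background correction, normalization, filter, probe choice, outlier spots, source table, replicate block and the arrays left out. The number of arrays limits the precision.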

Additional observations from a re-analysis of the deposited data

Results flagged for a closer look

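Dixon's ratio, tested for 9 members and Il6 in each of 4 groups (40 groups), set 1 array apart in 6 groups, where chance sets apart about 5%. In untreated control cells replicate 3 was the lone low array for Cpa3 (-0.011), Cma1 (3.44), Mcpt4 (1.11), Tpsb2 (0.026) and Il6 (-0.60). The members share that array, so these are not separate observations. In cells labelled fld with LPS, replicate 4 was the lone high array for Il6 (7.31). Kit, Fcer1a, Ms4a2, Hdc and Gata2 were also lowest on untreated control replicate 3, by less than this ratio asks.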

How the results depend on the processing

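The call for Hdc with LPS held in both genotypes under all 28 alternative settings, with changes between 2.52 and 3.31 in cells labelled fld and between 3.15 and 3.90 in control cells. No member was called between untreated genotypes, or for the difference between genotypes in the LPS effect, under any of the 28. With extreme local backgrounds reset before normexp, 2 members passed with LPS in cells labelled fld, Hdc and Ms4a2 (0.59). Ms4a2 was kept only through LPS fld cells, its highest group, so its calls here are no test of its level. With LPS, 1 member passed between genotypes under each array's median and in the series value table (Mcpt4, -1.33), and 1 in the setting added after seeing the data, without untreated control replicate 3 and both arrays labelled fld replicate 4 (Mcpt4, -1.19). Leaving out 1 array gave 0 to 1 there, with Ms4a2 at 1.05 without LPS fld replicate 3.

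The Il6 slope called 2 members with normexp, 1 with array medians and the series value table, and 0 with the reset backgrounds, quantile normalization, no filter, a filter of 1 array, outlier spots kept, the mean of probes, the replicate block, both fld replicate 4 arrays out, the added setting, the 8 untreated or the 8 LPS arrays alone. Leaving out 1 array gave 0 to 1 members, and Mcpt4 stayed between 0.72 and 1.14 with adjusted p between 0.019 and 0.79 over the 30 settings. Features called by the slope ranged between 0 and 680.

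Signs turned as follows. Ms4a2 with LPS in control cells was -0.013 with quantile normalization, -0.24 without untreated control replicate 3 and in the added setting, and -0.12 without LPS control replicate 1 (at most 0.18 with 1 array out). Without both fld replicate 4 arrays, also in the added setting, Cpa3 and Kit with LPS in cells labelled fld were -0.029 and -0.025 (with 1 array out, at most 0.71 and 0.84). Il6 between genotypes with LPS was -0.0243 with reset backgrounds, -0.35 under array medians and the series value table, -0.13 without LPS control replicate 3, and -0.12 without LPS fld replicate 4, without both fld replicate 4 arrays and in the added setting (at most 0.19 with 1 array out). The Ms4a2 slope was -0.30 with normexp, and the Hdc slope -0.62 over the 8 LPS arrays. The causes were not tested.

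Features called between genotypes ranged between 0 (normexp) and 1651 untreated (reported: 918) and between 0 and 8640 with LPS (reported: 2981). LPS called 1392 features in cells labelled fld and 1130 in control cells with normexp (reported: 7009 and 5231). The difference between genotypes called between 0 and 13 features (reported: 0). Under array medians 29.6% of LPS calls in cells labelled fld were higher, against 54.7%, and the median feature moved by -0.24. With quantile normalization 74.1% of calls between genotypes with LPS were higher, and with reset backgrounds 66.7% of LPS calls in cells labelled fld. Same-numbered arrays of a genotype correlated between -0.10 and 0.20 in cells labelled fld and between 0.08 and 0.26 in control cells in their deviations. Differently numbered arrays lay between -0.42 and 0.38 and between -0.25 and 0.21. The labels do not state a pairing, so the numbers were not taken to pair arrays. In control cells every same-numbered pair was positive, so a pairing there is not excluded. With the replicate block, LPS called 1 member in each genotype and no member passed for the slope (Mcpt4 0.88, adjusted p = 0.79), with 0 features. The number of arrays and their spread limit what could be called: SE of members between groups was 0.33 to 0.57.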
